A study of Mus musculus with 10 samples.

Results

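The genes examined act in the G1 phase of the cell cycle: the D-type cyclins Ccnd1, Ccnd2 and Ccnd3, their kinases Cdk4 and Cdk6, the pocket protein Rb1, the E-type cyclins Ccne1 and Ccne2, the kinase Cdk2 and the phosphatase Cdc25a. A gene was counted as measured where the array's annotation gave it a probe set of its own, that is, a probe set with this gene as its single symbol. This held for 9 of 10 listed genes, with 10 probe sets between them, out of 22180 genes on the array. All 9 lay above the brightness filter that left 16635 genes for testing. Ccne2 shared its probe set with the neighbouring annotation Ints8, so its level could not be assigned and it is given separately at the end of the account of the E-type cyclins.

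In a cell that leaves rest, mitogens induce D-type cyclins, which activate Cdk4 and Cdk6. These kinases start to phosphorylate Rb1, a repressor that holds E2F transcription factors inactive, and E2F then drives cyclin E, which with Cdk2 completes the phosphorylation and opens S phase. Cdc25a removes the inhibitory phosphates from Cdk2. In airway epithelium the microRNAs of the miR-34 and miR-449 families accumulate in multiciliated cells, which have left the cell cycle. Work in human cell lines reported CDK4, CDK6, CCND1 and CCNE2 among the targets of miR-34, and CDK6 and CDC25A among those of miR-449, and that background is why these genes are of interest in a knockout of both families.

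RNA of the respiratory epithelium of the nose was measured in 10 mouse embryos at E16.5, with 1 Affymetrix array per embryo. The wild-type group (WT) and the triple knockout group (TKO) held 5 embryos each, numbered 1 to 5. The TKO embryos lacked miR-34a (miR-34a-/-), the miR-34b/c cluster (miR-34b/c-/-) and also the miR-449 cluster (miR-449a/b/c-/-), with no Cre or promoter named in the labels. WT replicate 3 and TKO replicates 2, 4 and 5 were labelled male and the other embryos female, so sex was in the model. The tissue was fixed in formalin, embedded in paraffin and cut out by laser capture. No label names a strain, a litter or an agent, and nothing says that same-numbered embryos belong together.

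The 4 microRNAs of both families whose sequences could be read from RefSeq (GRCm38.p6) are shown because they carry what the knockout removes. Each is printed 5′ to 3′ with the seed, bases 2 to 8, in capitals.
mmu-miR-34a-5p (chr4:150068473-150068494, plus strand): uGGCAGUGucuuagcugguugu
mmu-miR-34b-5p (chr9:51103610-51103632, minus strand): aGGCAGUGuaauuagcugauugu
mmu-miR-449a-5p (chr13:113037549-113037570, plus strand): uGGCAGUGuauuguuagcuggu
mmu-miR-449c-5p (chr13:113036008-113036028, plus strand): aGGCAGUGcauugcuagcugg
The 4 have 1 seed in common and differ in the bases that follow it. miR-34c-5p and miR-449b also belong to these families.

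The probe sets of the targeted microRNA genes were read as a check of the labels. Mir449a and Mir449c bore out the loss at the miR-449 cluster. Loss of miR-34a and of miR-34b/c was not shown at the threshold. The adjusted p-values of these microRNA genes come from a fit to all 22180 genes, without the brightness filter. The Mir449c probe set lay between 6.80 and 7.56 on the log2 scale in the WT embryos and between 3.16 and 4.39 in the TKO embryos (log2 change −3.41, limma adjusted p = 2.6e-05). The Mir449a probe set went from 7.20 ± 0.31 to 5.41 ± 0.29 (SD, n = 5 each, limma adjusted p = 0.000442). The Mir449b probe set was bright in both genotypes, at 12.13 to 12.23 in WT and 11.67 to 12.08 in TKO embryos (log2 change −0.33, limma adjusted p = 0.0318), so it does not report the loss of that microRNA. Mir34a, Mir34b and Mir34c gave no change past the threshold (limma adjusted p = 0.633, 0.166 and 0.318), with Mir34a and Mir34c between 3.03 and 3.75 in both genotypes, which is below the brightness filter of 4.58. Mir34b was above that filter in both, at 5.61 to 5.98 in WT and 5.40 to 5.57 in TKO embryos, without overlap (log2 change −0.28). Markers of general epithelium were present (10 of 10 above the brightness filter, mean log2 value 9.46 to 9.60 in WT and 9.37 to 9.53 in TKO embryos), as were multiciliated markers (11 of 11 measured, 10.06 to 10.34 in WT and 10.18 to 10.40 in TKO). Arrays of different embryos correlated at 0.9747 to 0.989 over the probe sets. Mesenchymal markers were also well measured in the captures (7.09 to 8.17 in WT, 6.74 to 8.30 in TKO). The mean of the secretory markers was higher in TKO embryos (6.94 to 7.62 against 7.44 to 7.85, exact permutation p = 0.0159, two-sided, 5 against 5). This p is not adjusted for the number of marker lists and takes no account of sex. By the same test the other lists had p of 0.119 or more. For the secretory mean the WT male read 7.62 and the TKO males 7.72 to 7.85. The WT females read 6.94 to 7.43 and the TKO females 7.44 and 7.79. None of the 8 secretory genes tested passed by itself, and the other 2, Scgb1a1 and Scgb3a2, were below the brightness filter. Of 10 mesenchymal markers 1 passed, Col3a1, which fell from 7.80 to 7.57 (limma adjusted p = 0.0234), while Col1a2 (10.69 and 10.84) and Twist1 (6.53 and 6.62) had higher means in TKO embryos. With sex in the model the log2 changes of Col1a2 and Twist1 were −0.55 and −0.094 and did not pass (limma adjusted p = 0.523 and 0.717). Of 8 skeletal muscle markers 2 fell, Tnnt3 from 6.19 to 5.43 (limma adjusted p = 0.0302) and Ttn from 5.28 to 4.86. Of 7 basal markers 1 fell, Ngfr, from 5.98 to 5.64 (limma adjusted p = 0.0418). These counts are to be read against the 1.12% of all tested genes that fell. The part of these markers in the results below was not tested. In pieces of tissue, fewer cells of a type and less RNA per cell cannot be told apart.

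Of the 9 measured G1 regulators, 2 rose in the TKO epithelium, Ccnd3 and Cdk6, and 1 fell, Cdk4, in a fit over all 16635 genes (limma with sex as a covariate, Benjamini-Hochberg adjustment, threshold 0.05). Over all tested genes 4.39% rose and 1.12% fell. The other 6 did not pass the test. The median log2 change was 0.018 over the 9 genes and −0.00052 over all tested genes, and the members went both ways. For 3 members, Ccnd3, Cdk6 and Ccne1, all TKO embryos lay above all WT embryos, and for 1, Cdk4, all lay below. Over all tested genes this held for 5.54% (above) and 2.07% (below). No member lies within 5 Mb of the 3 deleted microRNA loci.

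**Figure D1:**
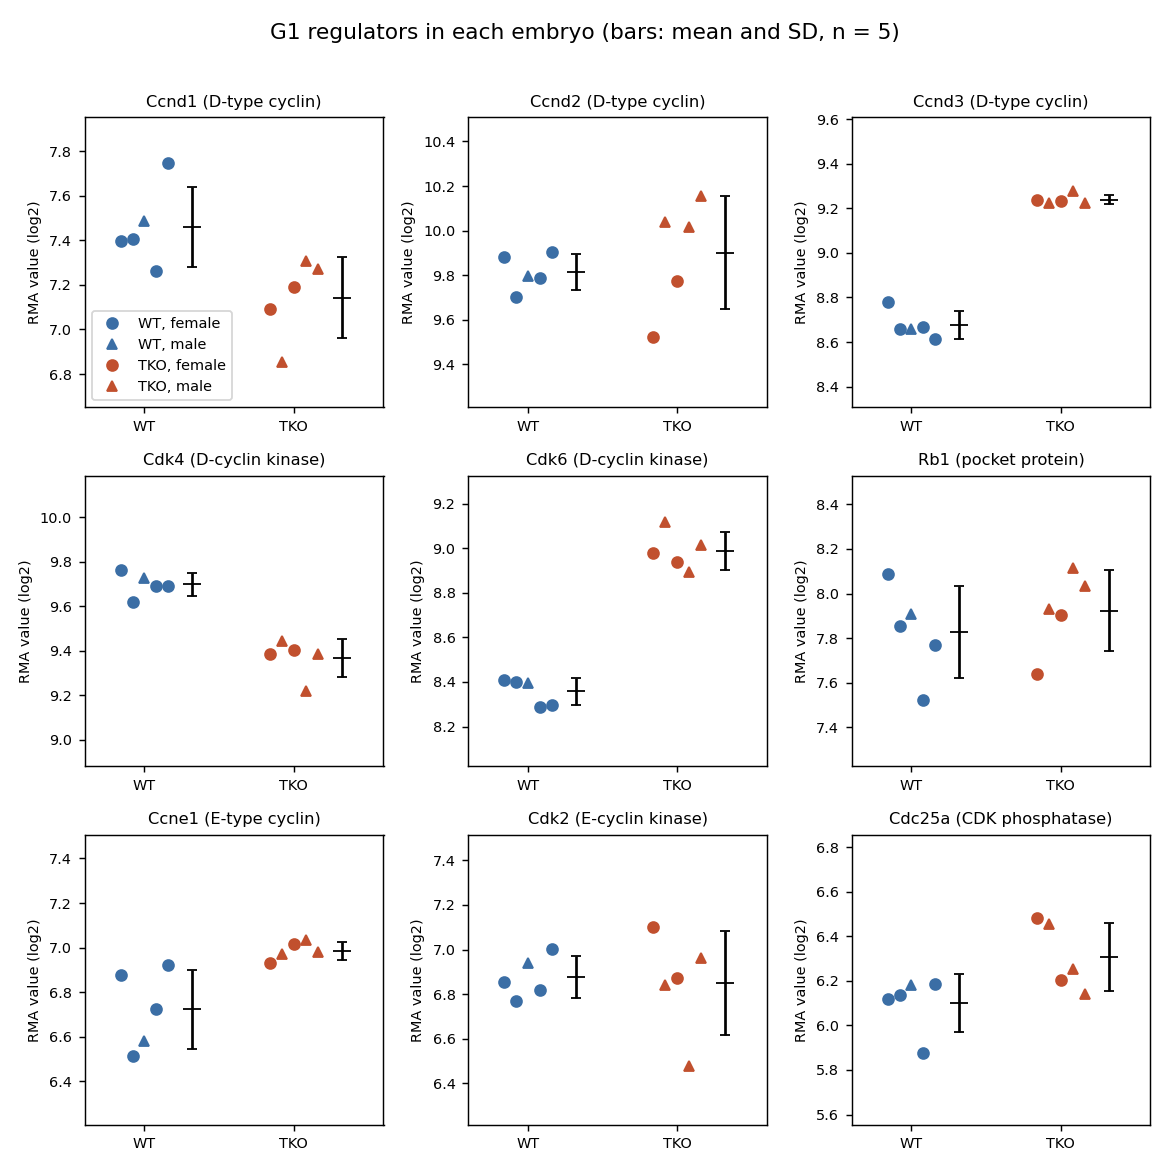
RMA log2 value of each measured G1 regulator in each embryo, with WT in blue and TKO in orange, females as circles and males as triangles, and the mean and SD of 5 embryos as a bar. Every panel spans the same log2 distance, and the genotypes separate without overlap for Ccnd3, Cdk6, Cdk4 and, narrowly, Ccne1.

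The 3 D-type cyclins, which bind and activate Cdk4 and Cdk6 and differ mainly in where they are expressed, did not move together. Ccnd3 rose, the means of Ccnd2 differed by 0.088, and Ccnd1 had a lower mean in the TKO embryos that did not pass the test. For Ccnd3, the cyclin D that is most often linked to differentiating cells, the WT embryos 1 to 5 had log2 values of 8.78, 8.66, 8.66, 8.67 and 8.62, and the TKO embryos 1 to 5 had 9.24, 9.23, 9.23, 9.28 and 9.22. Each TKO embryo lay above each WT embryo, and the TKO values were tightly spaced. The mean went from 8.68 ± 0.062 to 9.24 ± 0.022 (SD, n = 5 each), a log2 change of 0.56 (SE 0.059, 95% interval 0.44 to 0.69, 1.48-fold, limma adjusted p = 0.000426). An exact two-sided permutation of the 10 arrays, on the difference of group means without sex, gave p = 0.00794, the smallest that 5 against 5 allow. The change was of like size in the females (0.55) and in the males (0.59), although the WT group held 1 male.

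Ccnd1, the cyclin D most directly induced by growth factors and by Wnt signalling, had log2 values of 7.40, 7.41, 7.48, 7.26 and 7.75 in the WT embryos and of 7.09, 6.85, 7.19, 7.31 and 7.27 in the TKO embryos. The TKO values were the lower ones on the whole, with 2 of them above the lowest WT embryo. The means were 7.46 ± 0.18 and 7.14 ± 0.18 (SD, n = 5 each). The log2 change of −0.32 (SE 0.12, interval −0.58 to −0.06) had an unadjusted p of 0.0196 and a limma adjusted p of 0.145, and so did not pass. An exact permutation test gave p = 0.0238. The estimate was close to that of Cdk4 below, with a larger standard error.

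Ccnd2 read 9.88, 9.70, 9.80, 9.79 and 9.90 in the WT embryos and 9.52, 10.04, 9.78, 10.01 and 10.16 in the TKO embryos. The TKO embryos were spread more widely (SD 0.25 against 0.080), with 3 of them above and 1 below the whole WT range. The log2 change with sex in the model was −0.010 (interval −0.22 to 0.20, limma adjusted p = 0.966). The 3 TKO embryos above the WT range were the 3 labelled male. The difference from WT was 0.27 among males and −0.17 among females, and the genotype by sex term had an unadjusted p of 0.0177 and a limma adjusted p of 0.994. With 1 male WT embryo this term rests on a single array. By limma no member passed it after adjustment, and of all tested genes 0.00601%, 1 in number, did. Ccnd2 was the 1 member with an unadjusted p below 0.05. The share of all tested genes at that unadjusted threshold was not counted, so the 0.00601% is no measure for it. A sex difference of the Ccnd2 response is not shown.

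The kinases that D-type cyclins activate moved in opposite directions. Cdk6 rose and Cdk4 fell, and for each of them the 2 genotypes did not overlap. For Cdk6 the WT log2 values were 8.41, 8.40, 8.39, 8.29 and 8.30, and the TKO values were 8.98, 9.12, 8.94, 8.89 and 9.01. The lowest TKO embryo stood well above the highest WT embryo. The mean went from 8.36 ± 0.059 to 8.99 ± 0.084 (SD, n = 5 each), a log2 change of 0.61 (SE 0.066, interval 0.47 to 0.76, 1.53-fold, limma adjusted p = 0.000551, exact permutation p = 0.00794). It was 0.61 in either sex.

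For Cdk4 the WT values were 9.76, 9.62, 9.73, 9.69 and 9.69, and the TKO values were 9.39, 9.44, 9.40, 9.22 and 9.38. Every TKO embryo was below every WT embryo, with TKO replicate 4 the lowest. The mean went from 9.70 ± 0.052 to 9.37 ± 0.087 (SD, n = 5 each), a log2 change of −0.33 (SE 0.065, interval −0.47 to −0.18, 1.25-fold lower, limma adjusted p = 0.0139, exact permutation p = 0.00794). The call for Cdk4 was less firm than those for Ccnd3 and Cdk6. It was lost without WT replicate 3 (−0.30, limma adjusted p = 0.123), without TKO replicate 3 (−0.34, limma adjusted p = 0.0563), in females alone (−0.30, limma adjusted p = 0.145) and when a summary score of non-epithelial markers was added to the model (−0.30, limma adjusted p = 0.166). Under the same 4 settings Ccnd3 and Cdk6 passed, with limma adjusted p of 0.0454 and 0.0316 in females alone and of 0.00916 and 0.0212 with that score.

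**Figure D2:**
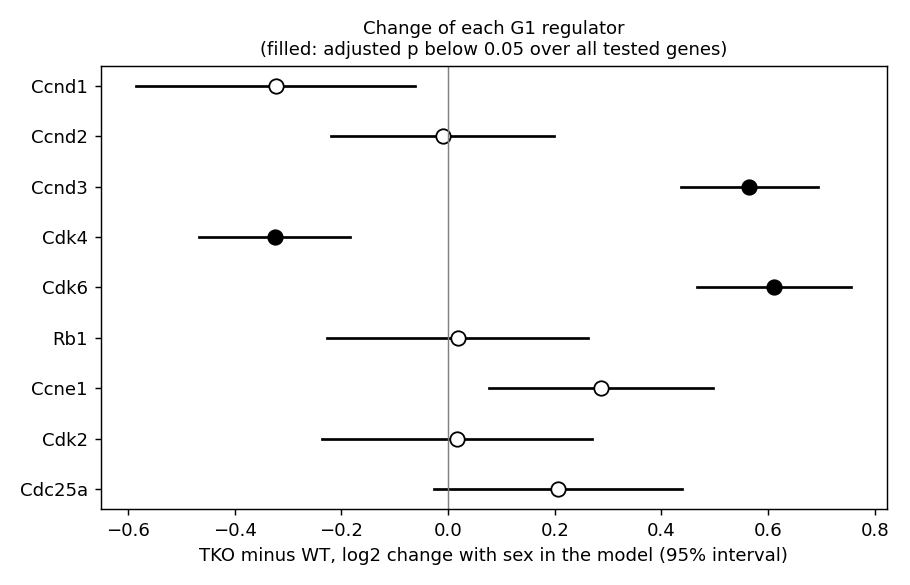
Log2 change of each measured G1 regulator, TKO minus WT with sex in the model, with its 95% interval; filled points had a limma adjusted p below 0.05. Cdk6 (0.61) and Ccnd3 (0.56) lie to the right of 0, Cdk4 (−0.33) to the left, and the interval of Ccnd1 ends just below 0 without passing after adjustment.

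The contrast between related genes was also read within each embryo. These within-array differences are set to 0 at the WT mean, so that no probe set's level is held against another's, and they are given as a description with no test. The log2 difference Cdk6 minus Cdk4 ran from −0.061 to 0.12 in the WT embryos and from 0.87 to 1.02 in the TKO embryos, with a TKO mean of 0.96 ± 0.060 (SD, n = 5). The gap between the genotypes was larger than the spread within either. For Ccnd3 minus Ccnd1 the WT embryos ran from −0.35 to 0.19 and the TKO embryos from 0.73 to 1.15 (TKO mean 0.88 ± 0.17). For Ccnd3 minus Ccnd2 they ran from −0.15 to 0.093 and from 0.21 to 0.85 (TKO mean 0.48 ± 0.25), again apart. For Ccnd2 minus Ccnd1 the ranges, −0.20 to 0.17 and 0.076 to 0.83, overlapped. These differences restate the changes above on a scale that a shift common to a whole array would not alter.

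**Figure D3:**
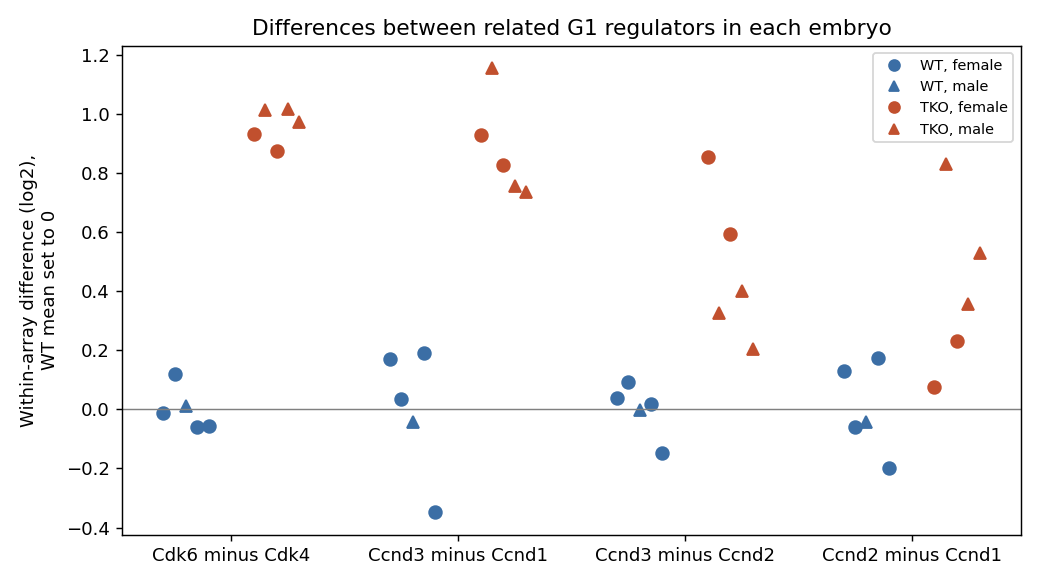
Within-array log2 differences between related G1 regulators in each embryo, with the WT mean of each pair set to 0, WT in blue, TKO in orange, females as circles and males as triangles. The TKO embryos sit at 0.87 to 1.02 for Cdk6 minus Cdk4, and the genotypes overlap for Ccnd2 minus Ccnd1.

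The promoters of the 2 kinases are shown because the kinases moved in opposite directions. They are RefSeq windows of GRCm38.p6, 250 bases before to 50 after the annotated start, with each E-box CACGTG, the element that Myc and related factors bind, in capitals.
Cdk4 (chr10:127063285-127063584, plus strand): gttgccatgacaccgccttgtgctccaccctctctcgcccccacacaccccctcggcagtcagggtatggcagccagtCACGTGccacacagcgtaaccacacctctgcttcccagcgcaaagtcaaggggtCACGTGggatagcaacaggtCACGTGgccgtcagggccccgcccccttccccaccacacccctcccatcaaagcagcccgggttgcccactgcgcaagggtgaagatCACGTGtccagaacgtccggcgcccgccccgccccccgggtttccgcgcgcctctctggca
Cdk6 (chr5:3343643-3343942, plus strand): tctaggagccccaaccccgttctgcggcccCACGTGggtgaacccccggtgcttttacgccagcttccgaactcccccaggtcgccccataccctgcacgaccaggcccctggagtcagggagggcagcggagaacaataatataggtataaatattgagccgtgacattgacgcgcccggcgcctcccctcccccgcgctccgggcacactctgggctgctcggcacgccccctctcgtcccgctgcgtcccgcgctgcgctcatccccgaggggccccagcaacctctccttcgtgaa
The E-box is its own reverse complement, so both strands give the same matches. The Cdk4 window held 4, with first bases at −172, −118, −98 and −11 from the start, and the Cdk6 window held 1, at −220. Of 32851 promoter windows of the same length 7.15% held at least 1 E-box and 0.024%, which is 8 windows, held 4 or more. The cut of 4 is the number found in the Cdk4 window, so this share is a description and not a test.

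An E2F-like motif, TTTNNCGC on either strand, was searched in the same windows and was present in 5.17% of them. N was any base, so the matches differ in their middle letters. Among the members it occurred in Cdk6 (TTTTACGC, first base at −198), Cdk2 (GCGGGAAA, −140) and Cdc25a (TTTGGCGC, −67). RefSeq windows were at hand for 6 of the 10 genes, with 2 windows for Ccnd3. The windows of Ccnd3 and Ccne1 held neither an E-box nor an E2F-like match. A match is a description of the sequence and does not show a bound site. Myc itself, which was on the list of mitogenic inputs and is named here for the E-boxes after its values had been seen, averaged 7.38 ± 0.18 in WT and 7.21 ± 0.28 in TKO embryos (SD, n = 5 each; log2 change −0.18, limma adjusted p = 0.55).

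Rb1, the substrate of these kinases, showed no difference beyond the spread between embryos. Its values were 8.09, 7.85, 7.91, 7.52 and 7.77 in the WT embryos and 7.64, 7.93, 7.90, 8.11 and 8.03 in the TKO embryos, and the groups overlapped along nearly their whole range. The log2 change was 0.018 (interval −0.23 to 0.26, limma adjusted p = 0.948). A second Rb1 probe set gave 7.61 ± 0.26 and 7.504 ± 0.19 (SD, n = 5 each; change 0.0042), and 2 probe sets that Rb1 shares with Lpar6, a gene that lies within an Rb1 intron, gave changes of −0.0029 and −0.053. The interval leaves room for changes of up to 0.26, and RNA levels say nothing of how far the Rb1 protein was phosphorylated.

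Among the members after Rb1 with a probe set of their own, Ccne1 had the smallest adjusted p. This cyclin activates Cdk2 at the entry to S phase and is itself an E2F target. It read 6.88, 6.52, 6.58, 6.72 and 6.92 in the WT embryos and 6.93, 6.97, 7.02, 7.03 and 6.98 in the TKO embryos. The TKO embryos lay just above the highest WT embryo and were tightly spaced, while the WT embryos were not. The means were 6.72 ± 0.18 and 6.99 ± 0.040 (SD, n = 5 each). The log2 change was 0.29 (SE 0.096, interval 0.077 to 0.50), with an unadjusted p of 0.0117, a limma adjusted p of 0.110 and an exact permutation p of 0.00794. It did not pass the threshold over all genes.

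Ccne2, the other E-type cyclin, could not be measured by itself. The probe set annotated to Ccne2 and Ints8 together ran from 5.93 to 6.26 in WT (6.12 ± 0.12) and from 6.45 to 6.66 in TKO embryos (6.54 ± 0.077; SD, n = 5 each). The genotypes did not overlap, and the log2 change of 0.40 (SE 0.090) had a limma adjusted p of 0.0641 over all probe sets. That fit is not the one used for the members, so its adjusted p-values cannot be held against theirs. In it Cdk4 had a limma adjusted p of 0.0383 and Ccnd3 of 0.00231, against 0.0139 and 0.000426 in the members' fit. Whether the shared probe set would pass in the members' fit was not tested. Whether its signal came from Ccne2 or from Ints8 cannot be told apart.

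Cdk2, the kinase of the E-type cyclins, gave 6.85, 6.77, 6.94, 6.82 and 7.004 in the WT embryos and 7.10, 6.84, 6.87, 6.48 and 6.96 in the TKO embryos. The TKO embryos lay both above and below the WT range. The log2 change was 0.017 (interval −0.24 to 0.27, limma adjusted p = 0.953). Cdc25a, the phosphatase that activates Cdk2, gave 6.12, 6.14, 6.18, 5.88 and 6.19 in the WT embryos and 6.48, 6.46, 6.21, 6.25 and 6.14 in the TKO embryos. TKO replicates 1 and 2 were the highest, the other TKO embryos lay within or just above the WT range, and WT replicate 4 was the lowest of the 10. The log2 change of 0.21 (interval −0.026 to 0.44) did not pass (limma adjusted p = 0.296, exact permutation p = 0.0317).

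The genes around the members were described from lists of the same pathway. These lists were drawn up with earlier results of the data known, so their counts are a description, and each is to be read against the 4.39% of all tested genes that rose and the 1.12% that fell.

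Among the Rb family, E2F factors and MuvB subunits, 4 of 18 tested genes rose and none fell, with a median log2 change of 0.15. E2f7, an E2F that represses E2F targets, rose from 8.49 ± 0.22 to 9.27 ± 0.064 (SD, n = 5 each; log2 change 0.86, limma adjusted p = 0.000322). E2f5, which with the pocket proteins represses in G0 and also acts in multiciliated cell differentiation, rose by 0.55 (7.03 to 7.61, limma adjusted p = 0.00552). Tfdp2, a dimerisation partner of E2F, rose by 0.53 (limma adjusted p = 0.00516), and Lin54, the DNA-binding subunit of MuvB, rose by 0.44 with overlapping arrays (limma adjusted p = 0.029). The members of the list that did not pass include the other pocket proteins Rbl1 (log2 change 0.14) and Rbl2 (0.089) and the activator E2f1 (−0.057).

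Of the 7 CDK inhibitors, 1 rose. Cdkn2c, which encodes p18 and binds Cdk4 and Cdk6, went from 5.61 ± 0.14 to 6.19 ± 0.15 (SD, n = 5 each), a log2 change of 0.53 (limma adjusted p = 0.0129). Cdkn1a, which encodes p21, had a change of 0.30 and a limma adjusted p of 0.0501. Among 7 tested genes of CDK activation, which are kinases and phosphatases of CDKs, their partners and the co-chaperone Cdc37, none passed by limma. The smallest p belonged to Cdk7, the kinase of the CDK-activating complex, with a log2 change of 0.29 (limma adjusted p = 0.109). Cdc25c, a phosphatase that acts on Cdk1, came next with 0.23 (limma adjusted p = 0.152).

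Of 21 genes for the turnover of G1 cyclins and Cdc25a, 1 rose. This was Cks1b, the cofactor with which Skp2 recognises p27, with a log2 change of 0.51 (8.02 ± 0.27 to 8.43 ± 0.10, SD, n = 5 each, limma adjusted p = 0.0227). Skp2 itself stood at 0.25 (limma adjusted p = 0.0963).

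Of 26 S-phase targets of E2F, 2 rose and none fell, and the median log2 change was 0.14. Dbf4, the regulatory subunit of the Cdc7 kinase, rose by 0.55 (7.87 ± 0.16 to 8.41 ± 0.10, SD, n = 5 each, limma adjusted p = 0.00738). Gmnn, which encodes geminin, the inhibitor of licensing, rose by 0.37 (limma adjusted p = 0.0408), and its call was lost under 14 of 23 alternatives. Pcna, the replication clamp, averaged 9.29 ± 0.24 and 9.41 ± 0.13 (limma adjusted p = 0.662).

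Mitogenic inputs to the D-type cyclins had a median log2 change of −0.14, and 1 of 19 fell while none rose. Fos, an immediate early factor, fell by 0.53 with overlapping arrays (7.16 ± 0.29 to 6.70 ± 0.12, SD, n = 5 each, limma adjusted p = 0.0423), a call lost under 13 of 23 alternatives. Ccndbp1, a protein that binds D-type cyclins, had a change of −0.26 without overlap of the arrays (limma adjusted p = 0.0648).

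Among 22 other cyclins and CDKs, 4 rose. Ccno, a cyclin needed for multiciliated cells to amplify centrioles, rose by 0.76 (9.44 ± 0.21 to 10.13 ± 0.092, SD, n = 5 each, limma adjusted p = 0.000848). Ccno lies 0.0482 Mb from the deleted Mir449 locus. Ccnb2, a mitotic cyclin, rose by 0.46 (limma adjusted p = 0.00479), Cdk12, a kinase of the RNA polymerase II tail, by 0.32 (limma adjusted p = 0.0209), and Cdk1 by 0.39 with overlapping arrays (limma adjusted p = 0.0355). The call for Cdk1 was lost under 12 of 23 alternatives.

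Of 25 reported targets of miR-34 or miR-449 other than the members, 2 rose, Jag1 (log2 change 0.74, limma adjusted p = 0.00372) and E2f5, and the list's median change was 0.029. Jag1 encodes a Notch ligand.

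Of 17 tested markers of mitosis, 8 rose and none fell, with a median log2 change of 0.41. Top2a, the topoisomerase of replicating and dividing cells, went from 8.70 ± 0.16 to 9.46 ± 0.11 (SD, n = 5 each, log2 change 0.77, limma adjusted p = 0.00105). Cenpf rose by 0.70, Aurka by 0.58 and Kif20a by 0.58 (limma adjusted p = 0.00146, 0.00105 and 0.00483), and Mki67 stood at 0.36 (limma adjusted p = 0.0753). The number that rose was 0 in females alone, 2 with the score of non-epithelial markers in the model, 3 without WT replicate 3, 4 without TKO replicate 3 and 13 without WT replicate 5. These markers moved with Ccnd3 and Cdk6 between the genotypes, and their part in the changes of the members was not tested. Some multiciliated markers moved too. Mcidas rose by 0.55, Deup1 by 0.50 and Myb by 0.46 (limma adjusted p = 0.00724, 0.0062 and 0.0062). The ciliary gene Cfap43 fell by 0.55 (limma adjusted p = 0.0239). With Ccno these were 4 higher and 1 lower of 11 multiciliated markers, against 4.39% and 1.12% of all tested genes. Of the markers that did not pass, Hydin (9.83 to 9.26) and Sntn (10.42 to 10.01) had lower means in TKO embryos. Foxj1 (10.86 to 11.04), Dnah5 (9.67 to 9.71), Rsph1 (11.04 to 11.05) and Tekt1 (10.59 to 10.64) had higher ones. The mean of the whole list gave an exact permutation p of 0.349, without sex. The distance of Mcidas, Deup1, Myb and Cfap43 from the deleted loci was not measured.

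**Figure D4:**
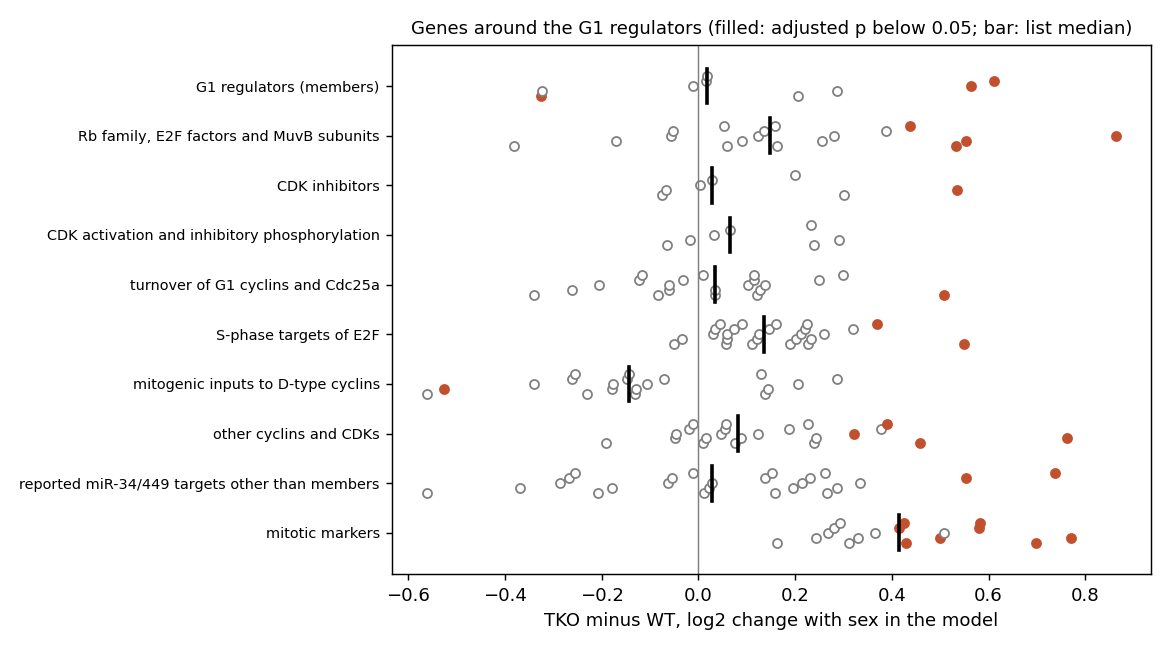
Log2 change, TKO minus WT with sex in the model, of the measured G1 regulators (top) and of the genes of each pathway list, with each gene as a circle, filled where the limma adjusted p was below 0.05, and the median of a list as a black bar. The bars run from −0.14 for the mitogenic inputs to 0.41 for the mitotic markers, with the G1 regulators at 0.018.

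Of the 18 genes named from these lists as having passed, 8 kept their call whichever single embryo was left out, E2f7, E2f5, Ccno, Ccnb2, Jag1, Top2a, Aurka and Cenpf, and the other 10 lost it at least once. Without WT replicate 3, the male of that group, 9 of the 18 no longer passed, Tfdp2, Lin54, Cks1b, Dbf4, Gmnn, Fos, Cdk12, Cdk1 and Kif20a (limma adjusted p from 0.0632 to 0.22). Without TKO replicate 3, 6 did not (Lin54, Cks1b, Gmnn, Fos, Cdk12 and Cdk1, limma adjusted p from 0.0767 to 0.132), and without TKO replicate 1 Cdkn2c was among 5 that did not, with limma adjusted p of up to 0.131. In females alone E2f7 still passed and the other 17 did not (limma adjusted p from 0.051 to 0.301). With the score of non-epithelial markers in the model E2f7, Ccno, Top2a and Aurka passed and 14 did not (limma adjusted p from 0.0545 to 0.398). The direction of each of the 18 was the same in all of these fits.

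Genes whose profile over the 10 embryos was most like a changed member were named by the root mean square difference of their log2 values, each gene centred on its mean. For Ccnd3 these were Ralgds (0.068), Depdc1a (0.071) and Rad17 (0.079). For Cdk6 they were Ralgds again (0.051), Icmt (0.064) and Diablo (0.075). Ralgds, an exchange factor for Ral GTPases that Ras activates, went from 8.33 to 8.92 (log2 change 0.60, limma adjusted p = 0.000426) and was the nearest profile to both. Icmt lies 2.23 Mb from the deleted Mir34a. For Cdk4 the nearest were Zmynd8 (0.062), Hexdc (0.068) and Tmem94 (0.069), of which Tmem94 fell by 0.31 (limma adjusted p = 0.0355), a call lost under 10 of 23 alternatives, and the other 2 did not pass (limma adjusted p = 0.115 and 0.13). Since the profiles of changed genes are led by the difference between genotypes, such likeness describes the size of that difference and its tightness over 10 arrays.

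The changes of Ccnd3 and Cdk6 kept their call under each of 23 alternatives, with log2 changes of 0.52 to 0.61 and 0.56 to 0.63. Cdk4 kept its call under 19 of 23, with changes of −0.35 to −0.30. Ccnd1 and Ccne1 passed under none of the 23 (0 by limma), with changes of −0.37 to −0.26 and 0.22 to 0.42, and Cdc25a likewise (0.11 to 0.27). For Ccnd2, Rb1 and Cdk2 the sign of the change turned under some alternatives.

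**Figure D5:**
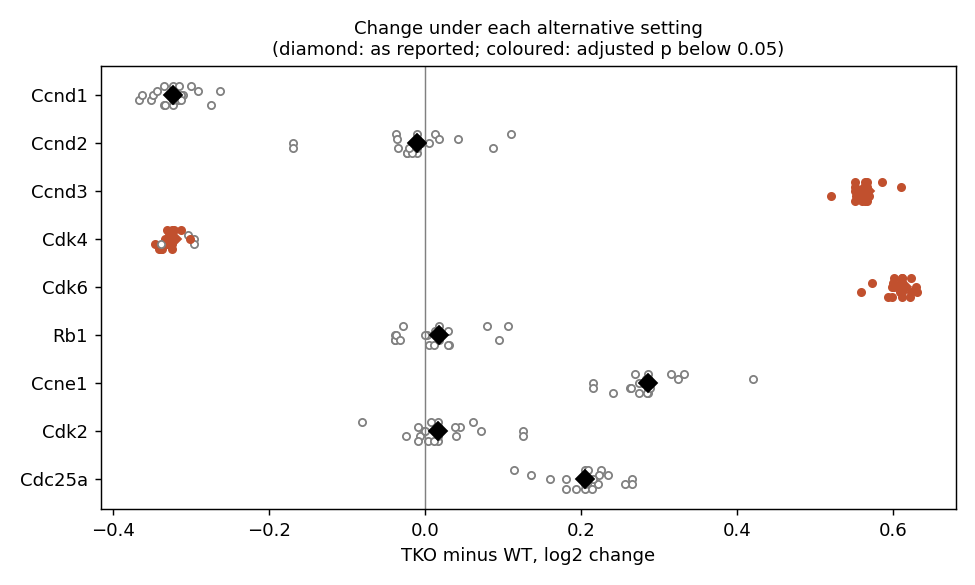
Log2 change of each measured G1 regulator under the 23 alternative settings, small circles, coloured where the limma adjusted p was below 0.05, with the reported value as a diamond. Ccnd3 stays between 0.52 and 0.61, Cdk6 between 0.56 and 0.63, and Cdk4 between −0.35 and −0.30, the last with 4 circles that did not pass.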

How the data were processed

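RNA of 10 embryos was measured on Affymetrix arrays. The authors produced the deposited values by RMA in the Affymetrix Expression Console, per the submitters' processing notes (versions not given in the sources used here). RMA subtracts background, quantile normalises the arrays and summarises the probes, so differences shared by all genes of an array are removed. The deposited values were taken as log2 from their range, about 1.5 to 13.7. Each genotype had 5 arrays, and what limits the precision was not tested.

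Of 41345 probe sets, 23521 had 1 gene symbol, 1814 several and 16010 none, and 23328 matched RefSeq (GRCm38.p6). Where a gene had several probe sets, the brightest on average was kept (22180 genes), and genes below the 25th percentile (log2 4.58) were left out. The comparison of TKO with WT used limma 3.58.1 (R 4.3.3) with labelled sex as a covariate, an intensity trend and Benjamini-Hochberg adjustment over 16635 genes (threshold 0.05, two-sided), and checked on simulated data. Exact permutation tests used all assignments of 5 and 5 arrays and the difference of group means, and took no account of sex. Where nothing states separate litters, p-values measure the spread between these embryos.

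The members and the gene lists were chosen with earlier results of these data known. From each list up to 4 genes past the threshold with the smallest p were named, or the 2 smallest where fewer than 2 passed, and for each changed member the 3 most alike profiles; Rbl1, Rbl2, E2f1, Pcna, Mki67, Myc and the multiciliated markers were named after their values were seen. The score of non-epithelial markers averages 6 lists (mesenchyme, endothelium, skeletal muscle, cartilage, leukocyte, glia), centred over arrays. The 23 alternatives changed the sex term, block, filter, scaling, variance model, probe sets, sex of the embryos, non-epithelial content, or left out 1 array. Figures were drawn with matplotlib 3.10.9. Besides the marker lists given in the results, basal markers (8.36 to 8.61 in WT, 8.23 to 8.57 in TKO), endothelium (4.88 to 5.59 and 4.80 to 5.41), skeletal muscle (5.31 to 6.81 and 5.19 to 5.94), cartilage (5.54 to 5.82 and 5.57 to 6.14), leukocyte (5.35 to 5.91 and 5.38 to 5.94), glia (5.93 to 6.93 and 5.79 to 6.69), erythroid (6.07 to 6.60 and 5.98 to 6.80) and olfactory neuron (5.91 to 8.15 and 5.77 to 7.31) overlapped between genotypes as mean log2 values per array. Ptprc, Cd3e, Tek, Cldn5 and Matn1 among them were below the brightness filter.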

Additional observations from a re-analysis of the deposited data

Results flagged for a closer look

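In 8 of 80 groups of 5 embryos, 1 embryo stood farther from the rest than Dixon's 95% limit for 5 values; chance marks about 1 in 20 such groups. Among the members these were Ccnd3 in TKO replicate 4 (9.2767, the others 9.224 to 9.2363), Cdk4 in TKO replicate 4 (9.218, the others 9.3836 to 9.4443) and Cdc25a in WT replicate 4 (5.8759, the others 6.1169 to 6.186). Without TKO replicate 4 the calls for Ccnd3 and Cdk4 were the same as with it. TKO replicate 4 was also the low embryo for the 2 genes with a profile like that of Cdk4, Zmynd8 (7.5126, the others 7.7415 to 7.7602) and Tmem94 (7.2252, the others 7.3406 to 7.3549), which were chosen for that likeness. The remaining ones were Ccndbp1 in WT replicate 3 (7.6, the others 7.7111 to 7.7458), Diablo in WT replicate 3 (8.6259, the others 8.3603 to 8.4227) and Jag1 in WT replicate 2 (8.0293, the others 7.6357 to 7.7436). No cause of these values was tested.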

How the results depend on the processing

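The 2 members called higher stayed 2 under all 23 alternatives. The 1 member called lower, Cdk4, became 0 in females only and 0 when the score of non-epithelial markers was a covariate, and leaving out single arrays gave 0 to 1. The cause was not tested, though females only leaves 6 arrays. The replicate block changed no call of a member, with 2 higher and 1 lower. For 1 of 5 numbers, replicate 4, the WT embryo deviated most like its same-numbered TKO embryo (r from −0.127 to 0.379 over the numbers). Whether any same-numbered embryos share an origin was not tested. Signs of near-zero changes turned: Ccnd2 was 0.088 with no sex term, 0.0048 with the replicate block and 0.042 with the covariate, and from −0.17 to 0.11 over the arrays left out. Cdk2 was −0.025 with no sex term, −0.0014 with the replicate block and −0.0061 after quantile normalisation, and from −0.081 to 0.13 over the arrays left out. Rb1 was −0.038 after quantile normalisation, −0.028 with array weights and −0.038 in females only, and from −0.038 to 0.11 over the arrays left out. Over all genes, 730 rose and 186 fell, against 52 and 4 in females only, 93 and 14 with the covariate, 282 lower with the replicate block, and 191 to 886 higher and 19 to 398 lower over the arrays left out (lowest without WT replicate 3, highest without WT replicate 5). The lists' counts of genes that rose dropped in females only to 1 for the E2F list and to 0 for the CDK inhibitor, turnover, S-phase, other cyclin and reported target lists. A sex difference among members was called for 0 of them with robust moderation and with no filter as well. With 1 male WT embryo, sex and that array cannot be told apart, and scanner signals were not used here.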
